A study of Arabidopsis thaliana with 20 samples.

Results

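The SAUR (small auxin-up RNA) genes described here are the 80 nuclear protein-coding genes of the TAIR10.1 RefSeq annotation whose name or synonym is SAUR followed by a number, out of 27444 nuclear protein-coding genes and 37899 nuclear genes in all. The annotation bears the family name out for 78 of them. One exception is AT5G01830, which carries the name SAUR21 but encodes an ARM repeat protein, so it is called by its locus below and SAUR21 stands for AT5G18030. The other is SAUR79 (AT2G35290), whose product is listed as uncharacterized. RefSeq gives the name SAUR68 to both AT1G29490 and AT1G29510, and the second is called SAUR67 here, as its RefSeq note asks.

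SAUR genes are among the fastest genes to be transcribed after auxin treatment. Most are short and lack introns, and many lie side by side in tandem arrays. In Arabidopsis, proteins of the SAUR19 type bind and inhibit PP2C.D phosphatases, which keeps plasma membrane H+-ATPases phosphorylated and active, acidifies the cell wall and allows cells to expand. BRM is the catalytic ATPase of one class of plant SWI/SNF chromatin remodelling complex, and BCL7A and BCL7B are subunits of the same complex. The authors also found BCL7A and BCL7B together with SYD and MINU, the ATPases of the other classes. BCL7 binding is therefore not a measure of the BRM complex alone.

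Binding was measured by anti-GFP ChIP-seq in 14-day-old whole Arabidopsis seedlings, in 6 groups of 2 libraries each, given as biological replicates. The groups were BCL7A-GFP in bcl7a brm-1 seedlings and BCL7A-GFP in bcl7a, BCL7B-GFP in bcl7b brm-1 and BCL7B-GFP in bcl7b, and BRM-GFP in brm-1 bcl7a bcl7b and BRM-GFP in brm-1. Each fusion was driven by its own promoter in a line that lacked the endogenous copy, and brm-1 is a null allele. Below they are called BCL7A in brm-1, BCL7A, BCL7B in brm-1, BCL7B, BRM in bcl7ab and BRM. Whole seedlings mix many cell types, so binding in fewer cells and weaker binding in every cell cannot be told apart. No list from seedlings without GFP was analysed here, and the 8 further samples of the series (spike-in ChIP-seq and MNase-seq) were not analysed here.

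The 12 lists held 14770 to 18870 nuclear peaks. A peak's height is given below as its percentile rank, the share of peaks of the same list, in percent, whose fold enrichment over background is as high or lower, so 100 is the highest peak. The BRM lists and the BCL7 lists did not share one lower limit: the weakest peaks had a -log10 q of 0.475 to 0.577 in the 4 BRM lists and of 2.03 to 2.25 in the 8 BCL7 lists, and the median peak was 799 to 841 bp wide in the BRM lists and 519 to 542 bp in the BCL7 lists. A genome-wide value served as background at 93.5% to 97.9% of peaks in the BRM lists and at 30.6% to 36.3% in the BCL7 lists. Ranks in BRM and BCL7 lists are thus not ranks of quite the same measure. Differences between BRM and the BCL7 proteins cannot be told apart from these differences in peak calling. A gene is called bound in a library when a summit lay within 1 kb of its transcription start site (TSS). With 2 libraries against 2, an exact permutation test cannot give a p below 0.333, and neighbouring genes share peaks, so counts, values of every library and the same counts over all protein-coding genes are given without tests.

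A single exon was annotated in 73 of the 80 genes (91.25%, against 18.9% of all protein-coding genes), and the median gene length was 815 bp against 2078 bp. In 9 tandem arrays, in which each TSS lay within 10 kb of the next, lay 37 members, and the other 43 lay alone. The largest arrays were SAUR49, SAUR50 and SAUR1 to SAUR5 on chromosome 4 (chr4:16577180-16599568) and SAUR19 to SAUR24 on chromosome 5 (chr5:5962773-5984308). Array copies resemble each other, but reads could be placed: 95.3% or more of the 150-mers around every SAUR TSS occurred once in the genome.

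The genomic sequence around 6 summits is shown because these places carry the main contrasts below. Each window is 151 bases of RefSeq TAIR10.1 centred on the mean summit of 1 group, free of annotated exons and on the strand of the gene (the authors mapped to TAIR10). Capitals mark TGTCTC and TGTCGG, elements bound by auxin response factors, the G-box CACGTG, and CATGTG, on either strand. The first window lies between the divergent genes SAUR14 and SAUR15 and carried a strong summit in all 12 libraries (BRM, chr4:18125747-18125897, plus strand). The second lies between the divergent genes SAUR28 and SAUR27, where BCL7B was lost in brm-1 (BCL7A in brm-1, chr3:980727-980877, plus strand). SAUR6 (BCL7A, chr2:9086063-9086213, minus strand) lost BCL7B but kept BCL7A. SAUR36 (BCL7A, chr2:18641061-18641211, plus strand) and SAUR79 (BCL7A, chr2:14862192-14862342, minus strand) had the best BCL7 and BRM summits at different places within overlapping peaks. SAUR43 (BRM in bcl7ab, chr5:16964209-16964359, plus strand) was the only member that gained BRM in bcl7ab.
SAUR14 and SAUR15: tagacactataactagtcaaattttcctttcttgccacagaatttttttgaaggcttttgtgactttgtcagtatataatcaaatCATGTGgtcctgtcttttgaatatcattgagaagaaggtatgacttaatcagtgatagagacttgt
SAUR28 and SAUR27: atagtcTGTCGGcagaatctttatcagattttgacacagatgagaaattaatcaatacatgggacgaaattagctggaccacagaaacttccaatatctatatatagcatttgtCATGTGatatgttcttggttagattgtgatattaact
SAUR6: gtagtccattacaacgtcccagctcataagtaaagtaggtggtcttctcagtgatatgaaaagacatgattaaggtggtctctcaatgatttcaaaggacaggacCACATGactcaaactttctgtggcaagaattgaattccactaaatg
SAUR36: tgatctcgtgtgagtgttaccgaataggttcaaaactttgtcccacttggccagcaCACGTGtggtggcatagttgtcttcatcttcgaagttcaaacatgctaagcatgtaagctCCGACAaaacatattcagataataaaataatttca
SAUR79: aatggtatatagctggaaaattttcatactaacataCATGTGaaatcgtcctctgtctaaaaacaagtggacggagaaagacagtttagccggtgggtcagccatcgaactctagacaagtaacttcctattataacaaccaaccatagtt
SAUR43: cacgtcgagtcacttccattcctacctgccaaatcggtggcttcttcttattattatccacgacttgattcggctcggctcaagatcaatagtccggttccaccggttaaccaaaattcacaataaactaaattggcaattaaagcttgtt

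CATGTG or its reverse complement CACATG stood in 4 of these 6 windows, which were picked after their values and motifs were seen. Windows of that length around all summits of a list held it in 8.25% to 10.35% of cases in the 12 lists, CACGTG in 5.92% to 10.9%, TGTCGG in 4.60% to 5.04% and TGTCTC in 10.65% to 11.2%. In the promoters, read from 250 bases before to 50 bases after the TSS, CATGTG was found in 33 of 80 SAUR genes (41.25%) against 12.9% of all protein-coding genes. TGTCTC was found in 11 SAUR promoters (13.75%, against 14.2%), TGTCGG in 2 (2.5%, against 5.12%) and CACGTG in 1 (1.25%, against 7.68%). CATGTG stood in 19 of the 39 promoters bound by BCL7B in both libraries and in 7 of the 30 bound in neither, in 17 of 36 and 10 of 36 for BCL7A, and in 12 of 34 and 12 of 33 for BRM. The same split over all protein-coding promoters was not computed. Array members made up 24 of the 39 genes bound by BCL7B and 6 of the 30 bound in neither library. For BCL7A they were 20 of 36 and 9 of 36, and for BRM 14 of 34 and 14 of 33. Promoters of array copies resemble each other and are not independent, and a match is only a run of letters, not a binding site.

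The first question was which SAUR genes BCL7A, BCL7B and BRM occupy. In both libraries, BCL7A in brm-1 was bound at 36 of the 80 SAUR genes (45%, against 53.6% of all protein-coding genes) and BCL7A at 36 (45%, against 52.2%). BCL7B in brm-1 was bound at 22 (27.5%, against 44%) and BCL7B at 39 (48.75%, against 50.1%). BRM in bcl7ab was bound at 32 (40%, against 39.3%) and BRM at 34 (42.5%, against 41.9%). BCL7B in brm-1 stood apart: its libraries had summits at 26 and 29 SAUR genes, against 45 and 44 in BCL7B libraries, while BCL7A in brm-1 had 41 and 39, against 38 and 42 in BCL7A libraries.

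**Figure D1:**
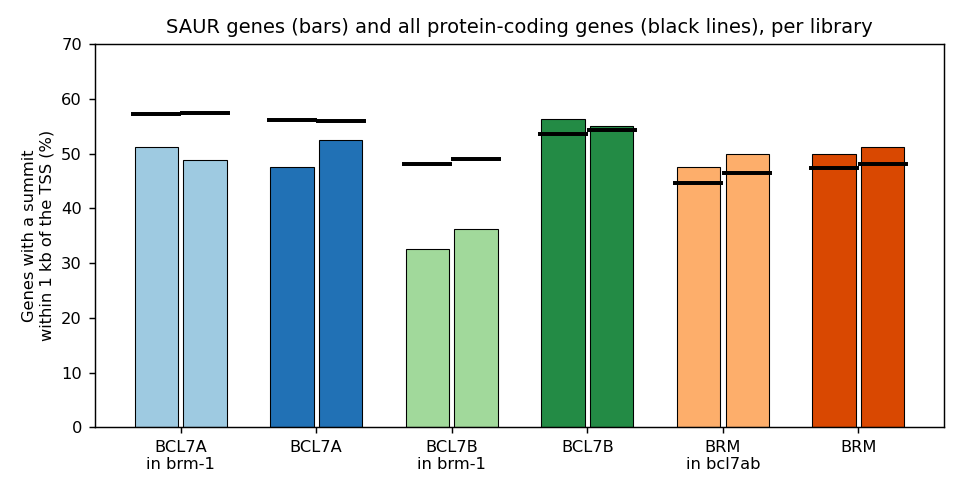
Percent of genes with a summit within 1 kb of the TSS in each of the 12 libraries (bars: 80 SAUR genes, 1 bar a library; black lines: 27444 protein-coding genes in the same library). The BCL7B in brm-1 bars stand at 32.5% and 36.25%, well under their black lines at 48.1% and 49.0%, and the 4 BRM bars stand at 47.5% to 51.25%, above theirs.

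Without a further mutation, 21 SAUR genes held all 3 proteins in both libraries (26.25%, against 32.4% of protein-coding genes), and 28 held none of them in both (35%, against 38.7%). A summit was present in all 12 libraries at 17 SAUR genes (21.25%, against 24.1%), and in none of the 12 at 18 (22.5%, against 27.8%). The empty genes were SAUR2, SAUR8, SAUR11, SAUR12, SAUR17, SAUR31, SAUR37, SAUR38, SAUR39, SAUR40, SAUR42, SAUR47, SAUR54, SAUR58, SAUR60, SAUR61, SAUR68 and SAUR75. A gene without a listed peak may still carry signal under the limit of the peak caller. BRM was present in both libraries, with no BCL7A or BCL7B summit in any library without brm-1, at SAUR30, SAUR32, SAUR33, SAUR45, SAUR48 and SAUR69, which is 6 genes (7.5%, against 3.71% of protein-coding genes). The reverse, BCL7A and BCL7B in both libraries and no BRM summit, was found at SAUR19, SAUR24, SAUR43, SAUR65, SAUR66 and SAUR74 (7.5%, against 8.5%).

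Where bound in both libraries, SAUR genes had lower median ranks than all bound genes in the BCL7 groups and higher ones in the BRM groups. The median rank over genes bound in both libraries was 42.4 for SAUR genes in BCL7A, against 59.4 for all protein-coding genes, 39.6 against 58.3 in BCL7B, 71.3 against 56.8 in BRM in bcl7ab, and 70.7 against 57.2 in BRM. Over all genes bound in a single library, replicate 1 of BRM in bcl7ab did not show this, with a SAUR median of 51.9 against 52.7, while replicate 2 had 63.3 against 52.6. Mean ranks above 75 were reached by 8 of the 36 BCL7A-bound SAUR genes (31.7% of all bound genes), 7 of the 39 BCL7B-bound (30.9% of all) and 16 of the 34 BRM-bound ones (29.4% of all).

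The highest BRM summit of the family stood at SAUR78, an ethylene-linked member, with ranks of 99 and 99.2 in BRM in bcl7ab and 99.4 and 99.1 in BRM. SAUR79 followed with 96.2 and 97.1 in BRM. SAUR50, an apical hook and cotyledon growth gene, had 97.7 and 94.9 in BRM. SAUR59 had 94.3 and 95.3 and AT5G01830 94.1 and 91.1. SAUR34 had 92.3 and 90.8, SAUR53 86.8 and 91.5, and SAUR72 86.5 and 89.0 in BRM. These were the 8 SAUR genes of highest mean rank in BRM.

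The BCL7 lists were led by partly other genes. SAUR79 was highest in BCL7A, with 93.0 and 93.1, and SAUR34 in BCL7B, with 90.9 and 98.7. SAUR14, SAUR15, SAUR4 and SAUR78 were among the 8 highest for both BCL7 proteins. SAUR72 had ranks of only 0.6 and 7.7 in BCL7A and 23.1 and 25.3 in BCL7B, and SAUR53 had 7.3 and 11 in BCL7A and 4.9 and 2.4 in BCL7B. BRM was high at both genes, as given above.

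The second question was how binding depends on the partner protein. A gene bound in both libraries without the further mutation is called retained when it was bound in both mutant libraries, partly kept when bound in 1, and lost when bound in none. Genes bound in neither library without the mutation and in both mutant libraries are called gained.

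For BCL7A in brm-1 the retained and lost shares were near those of all genes. Of the 36 SAUR genes bound by BCL7A, 33 were retained in brm-1 (91.7%, against 92.5% of bound protein-coding genes), 2 were partly kept (SAUR5 and SAUR46) and 1 was lost (2.78%, against 2.65%). The lost gene was SAUR67, whose nearest summits in brm-1 lay 1462 and 1423 bp upstream, while BCL7A had ranks of 4.8 and 14.0 there. One gene of 36, SAUR52, was gained (2.78%, against 4.52%), at ranks of 13.0 and 6.4. Without BCL7A replicate 1 the lost genes numbered 6 and the gained ones 3, and without BCL7A in brm-1 replicate 1 or replicate 2 there were 2 lost, with 2 and 5 gained. By their definition these counts cannot fall when a library is left out.

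For BCL7B in brm-1 the retained share was lower than that of all genes. Of the 39 SAUR genes bound by BCL7B, 21 were retained in brm-1 (53.8%, against 80.4%), 8 were partly kept (20.5%, against 9.94%) and 10 were lost (25.6%, against 9.66%). None of the 30 unbound genes was gained (against 2.99%). The lost genes were SAUR6, SAUR20, SAUR21, SAUR27, SAUR28, SAUR29, SAUR41, SAUR62, SAUR63 and SAUR66, and they corresponded to 9 distinct summits since SAUR27 and SAUR28 shared one. At 3 of the 10, SAUR6, SAUR29 and SAUR41, both brm-1 libraries still had a summit within 2 kb of the TSS. At SAUR29 these summits were high (76.7 and 80.3) and lay 1018 and 1107 bp downstream, just outside the window, where the summits inside it had ranked 5.3 and 14.6 in BCL7B.

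Most of the lost genes lay in tandem arrays. Of the 24 array members bound by BCL7B, 8 were retained in brm-1, 7 partly kept and 9 lost. Of the 15 bound members that lie alone, 13 were retained, 1 partly kept (SAUR74) and 1 lost (SAUR41). The 9 lost array genes came from 5 of the 9 arrays. BCL7A did not show this split, with 18 of 20 array members and 15 of 16 lone members retained in brm-1. Among the 30 SAUR genes that both BCL7 proteins bound, 3 (SAUR6, SAUR63 and SAUR66) were retained by BCL7A and lost by BCL7B in brm-1 (10%, against 3.96% of protein-coding genes bound by both).

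Height and the lists themselves moved with this result. The lost SAUR genes had a median rank of 18.8 in BCL7B, the retained ones 68.0, and array members 34.0 against 53.5 for lone members. Among all protein-coding genes, 32.9% of those with a BCL7B rank up to 25 were lost in brm-1 and 12.6% of those with a rank over 25 and up to 50, where SAUR genes lost 5 of 11 and 4 of 12. The BCL7B in brm-1 lists were shorter (14922 and 15300 peaks, against 17429 and 17711) and lower (median fold enrichment 2.80 and 2.78, against 3.38 and 3.39). Their background coverage was 1.37 times that of the BCL7B lists. With an equal number of peaks in every list, 5 of 29 bound SAUR genes were lost (17.2%, against 6.63%), all 5 of them in arrays. With peaks of 3-fold enrichment or more, 10 of 20 were lost (50%, against 32.0%), and the split between arrays and lone genes was gone, with 5 of 10 lost in each. The part of list length and height in the loss was not tested further. Leaving out any 1 of the 4 libraries gave 13 to 15 lost genes. By its definition this count cannot fall when a library is left out, so it does not test the loss.

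**Figure D2:**
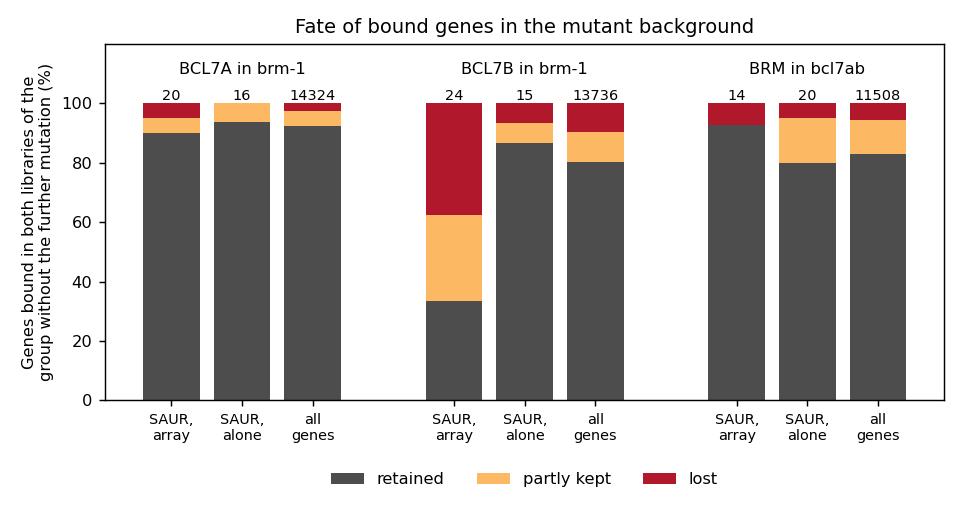
Fate in the mutant background of genes bound in both libraries without the further mutation, in percent, for SAUR genes in tandem arrays, SAUR genes that lie alone and all protein-coding genes (number of bound genes above each bar). For BCL7B in brm-1 the array bar is 8 retained, 7 partly kept and 9 lost of 24, while the lone-gene bar is 13 retained of 15.

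SAUR63, a gene that promotes hypocotyl and stamen filament elongation, had the highest BCL7B rank of the lost genes. BCL7B had no summit there in either brm-1 library, against ranks of 88.0 and 68.0 (5.39-fold and 4.07-fold enrichment) at -397 and -451 bp in BCL7B. The nearest BCL7B summits in brm-1 lay 4855 bp downstream and 3357 bp upstream. BCL7A at the same gene had ranks of 28.2 and 65.2 in brm-1 and 37.8 and 46.1 in BCL7A, so its groups overlapped. BRM had 5.8 and 43.5 in bcl7ab and 19.1 in 1 of 2 BRM libraries.

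Around SAUR63 the array on chromosome 1 (chr1:10301377-10308246, SAUR61 to SAUR65) was nearly empty of BCL7B in brm-1. Only SAUR65 had a summit, in 1 library, at rank 36.7, against 52.2 and 37.4 in BCL7B. SAUR62 had none, against the low ranks of 0.6 and 9.2 in BCL7B. SAUR61 had no summit in any library and SAUR64 only in 1 BRM in bcl7ab library. In the next array (chr1:10319732-10323239), SAUR66 had no BCL7B summit in brm-1, against 38.3 and 17.0 in BCL7B, while BCL7A had 37.1 and 24.4 in brm-1 and 12.8 and 37.2 in BCL7A. SAUR68 was empty throughout.

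The SAUR19 to SAUR24 array, whose products are the best known activators of the H+-ATPase, also had few BCL7B summits in brm-1, and its ranks were low. BCL7B was bound in both libraries at 0 of its 6 genes in brm-1 and at 4 in BCL7B. SAUR20 had no summit in brm-1, against 17.5 and 47.9, and SAUR21 none, against 44.8 and 34.4. SAUR19 had 7.6 in 1 brm-1 library, against 24.3 and 13.2, and SAUR24 had 8.6 in 1, against 24.3 and 34.4. The SAUR24 ranks belong to different places: the brm-1 summit lay at -55 bp. In BCL7B the best summits lay at 677 and 753 bp, past the end of the 626 bp gene. SAUR22 and SAUR23 shared a peak in single libraries of BCL7A, BCL7B and BRM in bcl7ab and were never bound in both. BRM was bound in both libraries at none of the 6 genes, and in bcl7ab only at SAUR21, at ranks of 10.1 and 12.9. At SAUR19 the BCL7B summits lay 727 and 717 bp downstream of the TSS, past the end of the 633 bp gene. Those of BCL7A lay 642 and 651 bp downstream in brm-1, against positions of -381 and -258 bp in BCL7A.

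In the chromosome 3 array (chr3:976715-983768), BCL7B in brm-1 had no summit at any of the 5 genes SAUR26, SAUR27, SAUR28, SAUR29 and SAUR73. BCL7B had both libraries at SAUR27 and SAUR28 (1.8 and 16.5, a shared peak) and at SAUR29 (5.3 and 14.6). BCL7A in brm-1 had summits at 4 of the 5 genes in both libraries, with 39.7 and 21.3 at SAUR27 and SAUR28, against 4.3 in 1 BCL7A library. No rank at these 5 genes was above 42.0 in any library.

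No member of the chromosome 4 arrays counted as lost for BCL7B in brm-1. SAUR14 and SAUR15 (SAUR-AC1, an auxin-induced gene used as a marker) start 498 bp apart on opposite strands and had 1 summit between them in every library. Its rank was 73.9 and 85.5 in BCL7B in brm-1, against 83.1 and 83.7 in BCL7B, and 91.1 and 85.1 in BCL7A in brm-1, against 92.8 and 86.7 in BCL7A. In BRM in bcl7ab it was 90.8 and 91.5, above the 86.1 and 88.5 in BRM. The summit lay 175 to 323 bp upstream of either TSS in all 12 libraries, so it cannot be assigned to either gene alone. SAUR4 had 88.1 and 83.0 in BCL7B in brm-1 and 86.8 and 86.0 in BCL7B, and SAUR3 had 50 and 59.6 in BCL7B in brm-1 and 50.4 and 54.3 in BCL7B. In the same array SAUR2 was empty, and SAUR1 had ranks of 0.7 to 7.6 in the libraries of BCL7 proteins with a summit.

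**Figure D3:**
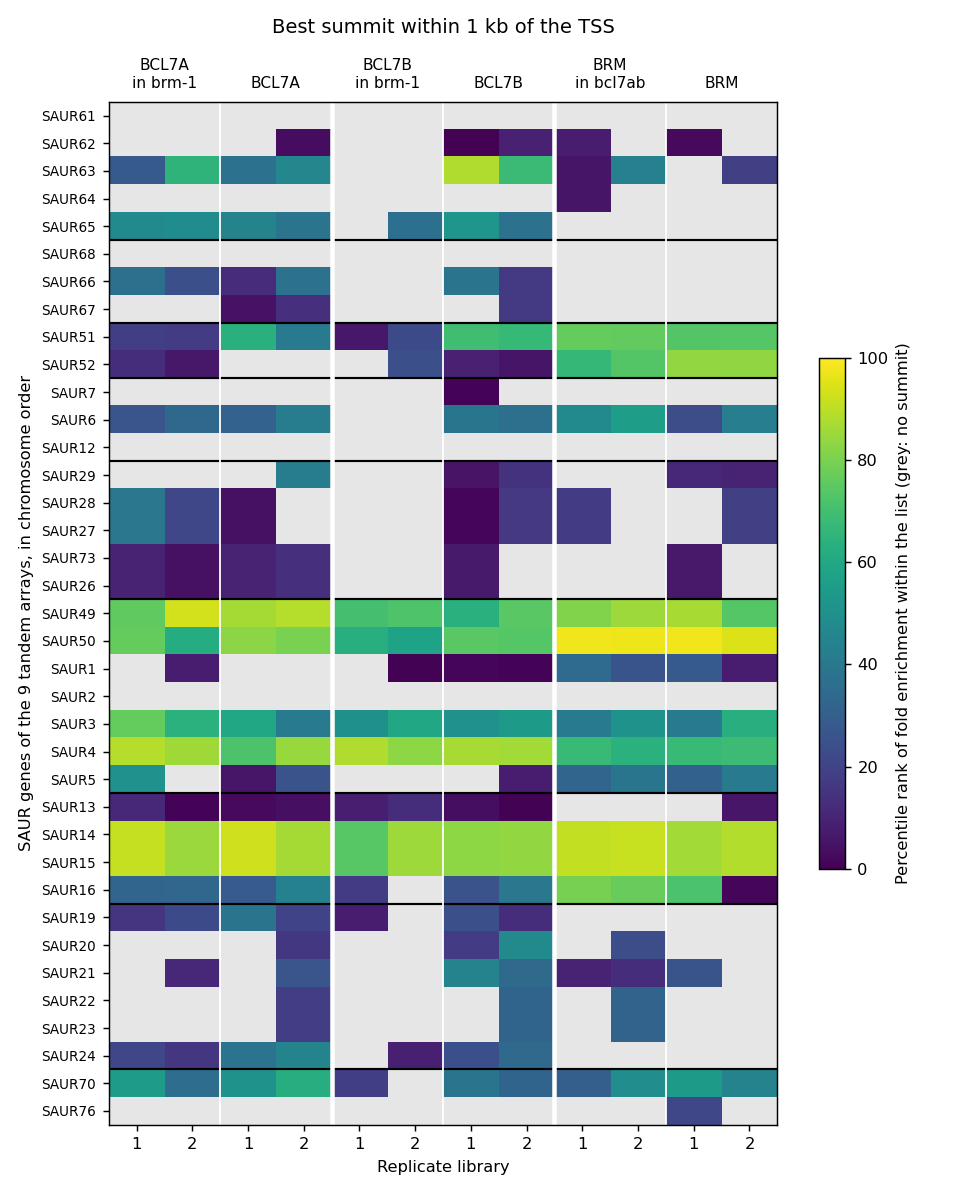
Percentile rank of the best summit within 1 kb of the TSS for the 37 SAUR genes of the 9 tandem arrays (rows, arrays divided by black lines) in the 12 libraries (columns); grey means no summit. The BCL7B in brm-1 columns are grey for the whole SAUR29 to SAUR26 array and for all but single libraries of the SAUR61 to SAUR65 and SAUR19 to SAUR24 arrays, while the SAUR14 and SAUR15 rows are coloured at 73.9 to 92.8 throughout.

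BRM was bound in both libraries at 3 of the 10 lost, 4 of the 8 partly kept and 18 of the 21 retained SAUR genes. Among all protein-coding genes bound by BCL7B, the shares were 65.4% of lost, 60.7% of partly kept and 69.0% of retained genes. No BRM summit in either library was found at 2 of the 10 lost, 4 of the 8 partly kept and 1 of the 21 retained SAUR genes. Over all protein-coding genes these shares were 18.4%, 22.6% and 18.3%. Among the 33 SAUR genes that retained BCL7A in brm-1, BRM was bound in both libraries at 22, near the 66.2% of all genes that retained BCL7A.

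For BRM in bcl7ab the shares were near those of all genes. Of 34 bound genes, 29 were retained (85.3%, against 82.8%), 3 partly kept (SAUR9, SAUR30 and SAUR57) and 2 lost (5.88%, against 5.51%). Of 33 unbound genes 1 was gained (3.03%, against 2.81%). The higher-ranked loss, SAUR77, lay at the edge of the window. Its nearest summits lay 1015 and 1029 bp downstream in bcl7ab, at ranks of 82.9 and 78.3, against 961 and 992 bp in BRM, at 88.6 and 85.5, and the TSS of AT1G17350 was nearer to it. The other loss was SAUR29, with 11.5 and 10.1 in BRM. The gain was SAUR43, at 49.5 and 62.8 in bcl7ab, whose nearest BRM summits without the mutation were 4161 and 4132 bp away. The new BRM summits lay at -355 and -378 bp, and those of BCL7A at -375 and -355 bp, with ranks of 58.5 and 48.9. The lost genes numbered 5 without replicate 2 of BRM in bcl7ab, 4 without BRM replicate 1 and 5 without BRM replicate 2. The gained genes numbered 4 and 3 without replicate 1 or 2 of BRM in bcl7ab and 2 without either BRM library. Neither count can fall when a library is left out.

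Ranks within retained genes were then compared. For BCL7A in brm-1 minus BCL7A, the median difference over the 33 SAUR genes was -1.66 percentile points, against 0.195 over all retained genes. Both brm-1 libraries ranked below both BCL7A libraries at 9 of them (27.3%, against 22.5%) and above at 7 (21.2%, against 23.7%). For BCL7B in brm-1 minus BCL7B, the median over 21 genes was -5.505, against -1.43, with 9 below (42.9%, against 34.3%) and 2 above (9.52%, against 27.3%). For BRM in bcl7ab minus BRM, the median over 29 genes was -2.29, against -1.49, with 11 below (37.9%, against 31.6%) and 6 above (20.7%, against 19.9%). The BCL7B median was -24.58 with peaks of 3-fold enrichment or more and -11.88 with ranks of -log10 p. With a window of 2 kb the BCL7A median was 4.455. It was -4.96 with the 3-fold limit and -4.76 with ranks of -log10 p. The BRM median was -6.66 with the 3-fold limit and -4.91 with a -log10 q of 5 or more. Leaving out 1 library gave medians of -9.51 to -4.54 for BCL7B and -4.44 to -0.67 for BRM. Rank is relative to the other peaks of a list and does not measure the absolute amount of protein bound.

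**Figure D4:**
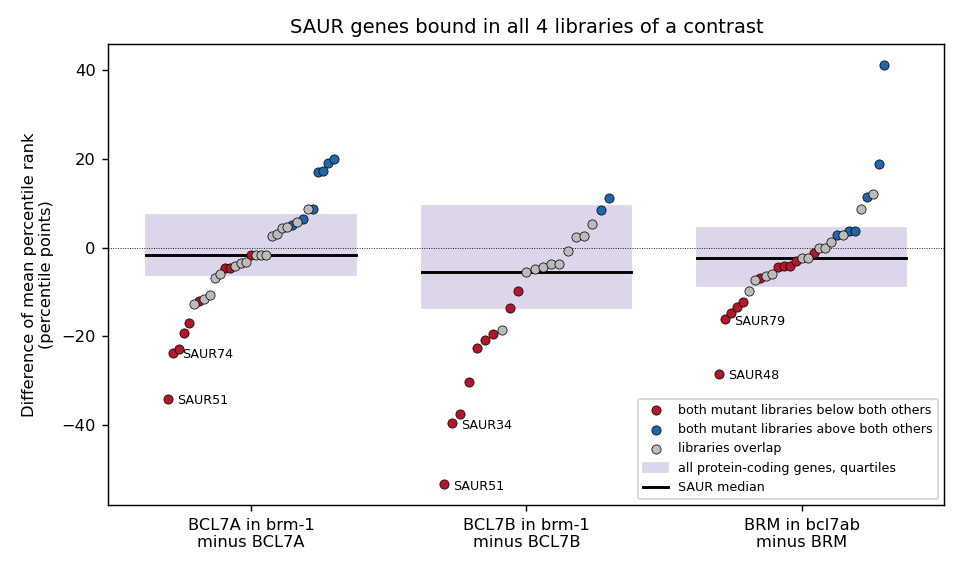
Difference of mean percentile rank, mutant minus its counterpart, for the 33, 21 and 29 SAUR genes bound in all 4 libraries of each contrast (points; red and blue where the 2 groups of libraries do not overlap), with the SAUR median (line) and the quartiles of all protein-coding genes bound in all 4 (band). SAUR51 has the lowest value for both BCL7 proteins, -34.10 and -53.44.

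SAUR51 ranked lower in brm-1 for both BCL7 proteins. BCL7A had 18.5 and 17.5 in brm-1, against 63.3 and 40.8 in BCL7A, and BCL7B had 6.5 and 22.6 in brm-1, against 69.2 and 66.8. BRM had 76.4 and 76.0 there in bcl7ab and 73.4 and 73.5 in BRM. SAUR34 also ranked lower for both, with 80.2 and 63.5 for BCL7A in brm-1, against 87.5 and 90.1, and 59.8 and 50.6 for BCL7B in brm-1, against 90.9 and 98.7. SAUR50 followed, with 76.5 and 61.8 for BCL7A in brm-1, against 82.7 and 79.8, and 62.6 and 58.2 for BCL7B in brm-1, against 74.4 and 73.6. At these 3 genes, and by less at SAUR79 (-1.66 for BCL7A and -9.83 for BCL7B), every brm-1 library lay below both libraries of its counterpart. Among all retained protein-coding genes, 22.5% ranked lower without overlap for BCL7A and 34.3% for BCL7B. The share that did so for both is not given here.

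SAUR36 (SAG201), which promotes leaf senescence, differed in direction between the BCL7 proteins. BCL7B had 15.5 and 16.3 in brm-1, against 51.5 and 55.4 in BCL7B, a difference of -37.57. BCL7A had 48.6 and 47.5 in brm-1, against 43.2 and 42.7 in BCL7A, a difference of 5.13. That BCL7A difference lay within the quartiles of all retained protein-coding genes (-6.18 to 7.41). For BCL7B in brm-1, SAUR44 (-30.38) and SAUR59 (-22.68) also ranked lower. For BCL7A in brm-1, the genes among the 5 lowest differences besides SAUR51 and SAUR34 were SAUR74 (-23.74), SAUR24 (-22.94) and AT5G01830 (-19.23), and the 5 highest non-overlapping ones were SAUR3 (19.92), SAUR57 (19.22), SAUR77 (17.22), SAUR43 (17.16) and SAUR4 (8.81). For BCL7B in brm-1 only SAUR53 (11.14) and SAUR13 (8.59) ranked higher without overlap, and their ranks were 22.3 or lower in every BCL7B library. The summits at SAUR77 and SAUR74, 1 BCL7A summit at SAUR34 and 1 BCL7A in brm-1 summit at SAUR24 lay nearer to the TSS of a neighbour outside the family, which for SAUR74 was AT3G12950, 3 to 78 bp from the summit. With summits assigned to the nearest TSS only, SAUR34 stood at 27.41 for BCL7A, and with a 2 kb window AT5G01830 stood at 0.246.

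BRM ranked lower in bcl7ab at SAUR48, with 22.7 and 48.9, against 63.9 and 64.6 in BRM, and at SAUR79, with 79.8 and 81.1, against 96.2 and 97.1. SAUR36 had 71.7 and 73.9 in bcl7ab, against 88.3 and 86.7, SAUR52 66.6 and 73.3, against 83.7 and 83.3, and SAUR33 4.0 and 7.0, against 16.3 and 19.1. It ranked higher at SAUR6 (48.0 and 56.1, against 23.8 and 42.7), at SAUR32, an apical hook gene (51.1 and 61.1, against 48.6 and 40.9), and at SAUR16 (79.3 and 76.9, against 71.8 and 1.9). The SAUR16 difference of 41.24 rests on BRM replicate 2, whose best summit was another, weak one at 175 bp, and without that library it was 6.28. SAUR34, SAUR35, SAUR53, SAUR59, SAUR72 and AT5G01830 also ranked lower without overlap, and SAUR14, SAUR15 and SAUR51 higher, by less than the genes just named.

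Positions were compared next. At SAUR genes the median summit of the BCL7 proteins lay upstream of the TSS and that of BRM without a further mutation downstream. For BRM in bcl7ab the side was not stable: over genes bound in a single library the median was -65.5 bp in replicate 1 and 62 bp in replicate 2, and a 2 kb window gave -24.5 bp. The median offset was -172 bp in BCL7A in brm-1 and -149.5 bp in BCL7A (all bound genes -18.0 and -20.5 bp), -200 bp in BCL7B in brm-1 and -165 bp in BCL7B (0 and -13.0 bp), and 61.5 bp in BRM in bcl7ab and 191 bp in BRM (118 and 167.5 bp). The best BCL7A summit was upstream at 26 of 36 SAUR genes (72.2%, against 55.2% of all bound genes), the BRM summit at 12 of 34 (35.3%, against 30.9%).

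**Figure D5:**
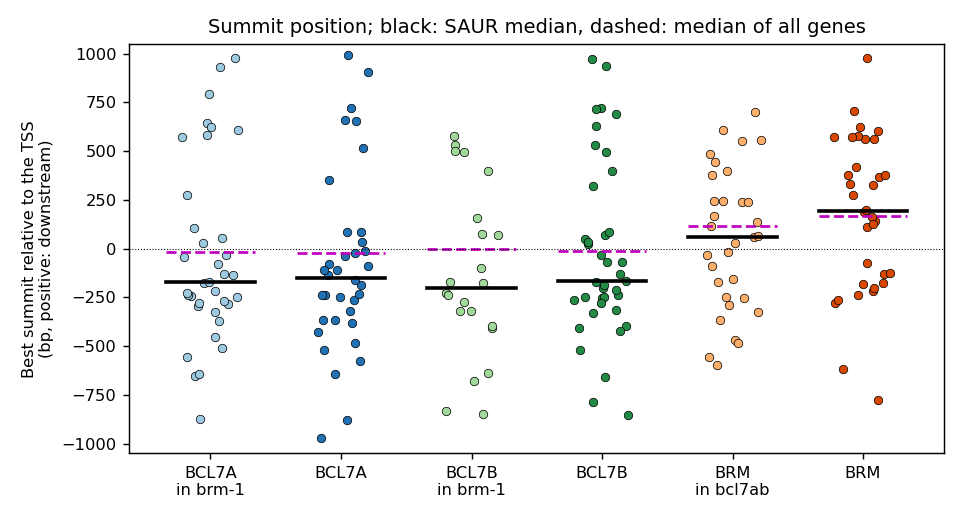
Position of the best summit relative to the TSS (bp, mean of 2 libraries, positive downstream) for SAUR genes bound in both libraries of each group (points), with the SAUR median (black) and the median of all bound protein-coding genes (dashed). The 4 BCL7 medians lie at -200 to -149.5 bp, below their dashed lines at -20.5 to 0 bp, and the BRM median lies at 191 bp.

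With BRM in bcl7ab, both summits lay downstream of both BCL7A summits at 6 of 23 shared SAUR genes (26.1%, against 50.7% of protein-coding genes) and upstream at 3 (13.0%, against 17.5%). At the 23 SAUR genes bound by both BRM and BCL7A, both BRM summits lay downstream of both BCL7A summits at 10 (43.5%, against 58.7% of protein-coding genes) and upstream at 5 (21.7%, against 16.5%), and the median shift was 45.5 bp, against 113 bp. At SAUR36 BRM in bcl7ab lay at -459 and 729 bp and BRM at 534 and 677 bp, while BCL7A lay at -419 and -436 bp. SAUR59 had BRM at 761 and 368 bp and BCL7A at -866 and -889 bp. At SAUR79 BRM in bcl7ab lay at 226 and -98 bp and BRM at 283 and 270 bp, while BCL7A lay at -83 and -95 bp. In 1 library of BRM in bcl7ab, at each of SAUR36 and SAUR79, the best summit was thus near that of BCL7A. The BRM peaks were broad: 3608 and 3569 bp at SAUR36, 4857 and 5113 bp at SAUR59, and 3370 and 2340 bp at SAUR79. They also covered the best BCL7A summits there, so only the highest points differed in place.

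Sharing of the best peak with another SAUR gene in both libraries concerned 6 genes in BCL7A in brm-1 (SAUR14 with SAUR15, SAUR26 with SAUR73 and SAUR27 with SAUR28) and 4 in BCL7A (the pairs other than SAUR27 with SAUR28). It concerned SAUR14 and SAUR15 alone in BCL7B in brm-1, these and SAUR27 with SAUR28 in BCL7B, and SAUR14 and SAUR15 alone in BRM in bcl7ab and in BRM. The start sites of these pairs were 470 to 510 bp apart. The TSS of a gene outside the family was nearer to the summit in both libraries at SAUR49, SAUR74 and SAUR77 for BCL7A, at these and SAUR62 for BCL7B, and at SAUR77 for BRM. At SAUR49 the BCL7 summits lay 8 to 106 bp from the TSS of ASE2 (AT4G34740).

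The partners of SAUR proteins in acid growth were looked up in the same lists, by locus. All 9 PP2C.D phosphatase genes were bound by BCL7A and by BCL7B and retained both in brm-1, and 8 were bound by BRM and retained in bcl7ab. Among all protein-coding genes, 52.2% were bound in both libraries by BCL7A, 50.1% by BCL7B and 41.9% by BRM. Of these, 92.5% of BCL7A-bound, 80.4% of BCL7B-bound and 82.8% of BRM-bound genes were retained. PP2C.D3 (AT3G12620) was the one without BRM. Of the 11 plasma membrane H+-ATPase genes AHA1 to AHA11, BCL7A bound 2 and BCL7B 1. AHA11 was high, at 98.5 and 99.6 for BCL7A in brm-1 and 99.3 and 98.5 in BCL7A. AHA2, a main pump of growing cells, had BRM at 94.1 in 1 bcl7ab library, against 95.9 and 97.9 in BRM. AHA1 was gained by BCL7A in brm-1, at 32.1 and 33.6, and no summit was found at AHA4, AHA6, AHA7, AHA8 or AHA10. The 6 auxin receptor genes TIR1 and AFB1 to AFB5 were all bound by BCL7A and by BCL7B. In brm-1 BCL7B was lost at AFB5, against 66.7 and 46.2 in BCL7B, and kept in 1 library at AFB1, at rank 4.4, against 84.1 and 84.5. BCL7A was lower there too. At AFB5 it had 10.1 in 1 brm-1 library, against 57 and 24.5 in BCL7A. At AFB1 it had 38.1 and 54.7 in brm-1, against 69.1 and 87.7.

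The families most like SAUR genes in auxin response were taken by name. BCL7B was retained in brm-1 at 10 of 17 bound Aux/IAA repressor genes (of 29), with 4 lost, at 8 of 13 bound ARF genes (of 23), with 4 lost, and at 2 of 3 bound GH3 genes (of 9), with 1 lost. BCL7A was retained in brm-1 at 15 of 18, 10 of 13 and 3 of 3 of them, and lost at 2, 2 and 0. Over all protein-coding genes, 80.4% of BCL7B-bound genes were retained in brm-1 and 9.66% lost. For BCL7A these shares were 92.5% and 2.65%.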

How the data were processed

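The authors trimmed reads with fastp, mapped them to TAIR10 with Bowtie, kept uniquely mapped reads and called peaks per library with MACS2 (2.1.1 in the submitters' processing notes). The 12 deposited lists give each peak's fold enrichment (a ratio to background, local or genome-wide), -log10 p and -log10 q, a whole-number score and a summit offset in bases. Fold enrichment was ranked within each list; the deposited score was not used. The lists hold no read counts, so depth is unknown; the background pileup recovered from the deposited fold enrichment and -log10 p values was 15.7 to 30.9.

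TSSs came from RefSeq TAIR10.1, and every peak ends within its nuclear chromosomes. Python 3.11.15, pandas 2.3.3, NumPy 2.4.6, SciPy 1.17.1 and matplotlib 3.10.9 were used, and gene assignment and fates were tested on simulated data. Members and lists were chosen with earlier results of these data known. Named genes were, per contrast, up to 8 lost genes of highest rank, up to 8 gained genes, the 5 largest rank drops and rises without overlap, the 8 highest genes per protein, described array members and members with known roles, and pathway genes where lost, gained or unbound; the other lost genes, the empty genes and the remaining members and pathway genes named were chosen after their values were seen. ADP-ribosylation factors were left out of the ARF list. Alternatives were other windows, stricter peak limits, equal list lengths, nearest-TSS assignment, gene-body overlap, -log10 p ranks, either replicate, distinct peaks, unique windows and leaving out each library.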

Additional observations from a re-analysis of the deposited data

Results flagged for a closer look

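At SAUR36 brm-1 was accompanied by opposite changes of the 2 BCL7 proteins. The percentile rank of BCL7A was 5.13 points higher in brm-1 than in BCL7A, in every library, and that of BCL7B was -37.57 points, lower in every library. The BCL7A change lay within the quartiles of all retained protein-coding genes (-6.18 to 7.41). Among all retained genes, 23.7% ranked higher without overlap for BCL7A and 34.3% lower for BCL7B. The share with both calls is not given here, and the difference between the 2 changes was not tested.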

How the results depend on the processing

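No paired analysis was possible because the results come from no test, and the replicate numbers are not said to mark shared batches. Of 530 alternative values, 414 stayed close to the main one, 113 moved and 3 reversed; for the 273 rank differences of single genes the counts were 249, 22 and 2. The cause was not tested where not given by the construction of the alternative. With a window of 500 bp, fewer genes were bound in both libraries: 23 for BCL7A in brm-1, 14 for BCL7B in brm-1, 21 for BRM in bcl7ab and 20 for BRM. BCL7A in brm-1 then had 21 retained, 2 lost and 0 gained genes and BRM in bcl7ab 17, 1 and 2, the median BRM rank difference was -0.15, and median offsets were -214.5 bp in BCL7A in brm-1, -185.5 bp in BCL7B and 136.25 bp in BRM. With 2 kb, 59 genes were bound by BCL7A in brm-1 and 41 by BCL7B in brm-1. BCL7A in brm-1 then had 51 retained, 0 lost and 4 gained genes, BCL7B in brm-1 39 retained and BRM in bcl7ab 1 lost. The median rank difference reversed to 4.455 for BCL7A, as did AT5G01830 (0.246), and was -3.70 for BCL7B. Median offsets at 2 kb were -214.5 bp in BCL7A in brm-1, -173.5 bp in BCL7B in brm-1, -212 bp in BCL7B, -24.5 bp in BRM in bcl7ab and 143.5 bp in BRM. Genes sharing their best peak then numbered 11 in BCL7A in brm-1, 13 in BCL7A, 4 in BCL7B in brm-1, 17 in BCL7B, 9 in BRM in bcl7ab and 8 in BRM. With -log10 q of 5 or more, BCL7A in brm-1 had 0 lost and 3 gained genes, and the median rank differences were -7.81 for BCL7B and -4.91 for BRM. With 3-fold enrichment or more, bound genes numbered 13 in BCL7A in brm-1, 14 in BCL7A, 6 in BCL7B in brm-1, 20 in BCL7B, 16 in BRM in bcl7ab and 16 in BRM. BCL7A in brm-1 then had 12 retained, 0 lost and 0 gained genes, BCL7B in brm-1 6 retained, and BRM in bcl7ab 14 retained, 1 lost and 0 gained, with median rank differences of -4.96, -24.58 and -6.66 for BCL7A, BCL7B and BRM. With 14770 peaks in every list, 23 genes were bound by BCL7A in brm-1, with 21 retained, 3 lost and 0 gained, and BCL7B in brm-1 had 5 lost and 2 gained genes and a median rank difference of -7.21. With the SAUR TSS as the nearest, BRM in bcl7ab had 1 lost gene, the medians were -7.67 for BCL7B and -3.55 for BRM, and SAUR34 reversed to 27.41 for BCL7A. With overlap of the gene body, BCL7A in brm-1 had 2 lost and 3 gained genes and BRM in bcl7ab 1 lost. With ranks of -log10 p, the medians were -4.76 for BCL7A and -11.88 for BCL7B. A limit of -log10 q of 2 or more, chosen after seeing the data, gave -3.58 for BRM. Leaving out 1 library at a time gave 1 to 6 lost and 1 to 5 gained genes for BCL7A in brm-1, 0 to 1 gained and median rank differences of -9.51 to -4.54 for BCL7B in brm-1, and 2 to 5 lost and 2 to 4 gained with medians of -4.44 to -0.67 for BRM in bcl7ab. The lost and gained counts cannot fall when a library is left out.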
